A study of Mus musculus with 4 samples.

Results

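Transcripts of 10 genes were followed through synovium and lung: the matrix metalloproteinases Mmp2, Mmp3, Mmp12, Mmp13, Mmp14 and Mmp19, and the tissue inhibitors of metalloproteinases Timp1, Timp2, Timp3 and Timp4. They were chosen by gene symbol, and all 10 were among the 32285 genes of each of the 4 single-cell RNA-sequencing libraries. The mice were 4 months old and female. TNF+ mice (TNF-Tg, hTNFtg) carry a human TNF transgene and develop inflammatory arthritis with lung disease, and TNF- mice are their littermates without it. There was 1 library per group, TNF- synovium, TNF+ synovium, TNF- lung and TNF+ lung, each from tissue pooled over 5 to 10 mice (synovium) or 3 to 5 mice (lung) of a genotype and dissociated with enzymes. The promoter that drives the transgene is not given in the sources used here, and the human transcript was not measured.

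Matrix metalloproteinases are zinc-dependent proteases that cut collagens, proteoglycans and other matrix proteins, and most are released as inactive proenzymes. Mmp13 is the main interstitial collagenase of the mouse, Mmp3 is a stromelysin that also activates other proenzymes, Mmp2 is a gelatinase, Mmp12 is the macrophage elastase, Mmp14 is a membrane-bound collagenase that activates proMmp2, and Mmp19 is a secreted protease of macrophages and stroma. The 4 TIMPs bind the active site of these enzymes, Timp2 also forms the complex in which Mmp14 activates proMmp2, and Timp3 is held in the matrix and inhibits ADAM17, the enzyme that sheds TNF. In an inflamed joint fibroblasts and macrophages of the synovial lining are known sources of the enzymes that erode cartilage.

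On GRCm38 the genes lie at chr8:92827291-92853420 (Mmp2), chr14:54431612-54445364 (Mmp14), chr10:128790910-128800824 (Mmp19), chrX:20870166-20874735 (Timp1), chr11:118301069-118355740 (Timp2), chr10:86300372-86349506 (Timp3) and chr6:115241892-115252205 (Timp4), with Timp2 and Timp4 on the minus strand. Timp1, Timp3 and Timp4 lie inside the synapsin genes Syn1, Syn3 and Syn2, on the opposite strand. Mmp13 (chr9:7272514-7283331), Mmp12 (chr9:7344381-7369499) and Mmp3 (chr9:7445822-7455975) lie in a gene cluster on chromosome 9, and their proximal promoters are shown because all 3 were higher in TNF+ synovium, beside that of Timp1, which was higher there too. Each sequence is the 250 bases upstream of a RefSeq start site on GRCm38.p6, 5′ to 3′ on the strand of the gene, and capitals mark the AP-1 motif, searched on both strands as TGAGTCA or TGACTCA. The Mmp12 sequence belongs to the downstream of its 2 start sites in the table.
Mmp3, chr9:7445572-7445821, plus strand: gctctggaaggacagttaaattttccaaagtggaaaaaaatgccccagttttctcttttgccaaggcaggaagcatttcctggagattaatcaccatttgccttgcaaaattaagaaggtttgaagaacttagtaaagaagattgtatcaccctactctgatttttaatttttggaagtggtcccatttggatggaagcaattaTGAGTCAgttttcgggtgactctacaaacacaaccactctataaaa
Mmp12, chr9:7347124-7347373, plus strand: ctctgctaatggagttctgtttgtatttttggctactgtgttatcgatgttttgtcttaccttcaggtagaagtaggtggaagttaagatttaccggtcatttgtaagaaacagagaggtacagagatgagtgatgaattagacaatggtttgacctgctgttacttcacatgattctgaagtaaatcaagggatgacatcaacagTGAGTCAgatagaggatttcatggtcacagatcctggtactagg
Mmp13, chr9:7272264-7272513, plus strand: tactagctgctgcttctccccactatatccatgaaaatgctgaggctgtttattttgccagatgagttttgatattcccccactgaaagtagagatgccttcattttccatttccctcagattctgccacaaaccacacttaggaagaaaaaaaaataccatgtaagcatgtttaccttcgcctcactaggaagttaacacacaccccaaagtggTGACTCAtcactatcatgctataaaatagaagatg
Timp1, chrX:20869916-20870165, plus strand: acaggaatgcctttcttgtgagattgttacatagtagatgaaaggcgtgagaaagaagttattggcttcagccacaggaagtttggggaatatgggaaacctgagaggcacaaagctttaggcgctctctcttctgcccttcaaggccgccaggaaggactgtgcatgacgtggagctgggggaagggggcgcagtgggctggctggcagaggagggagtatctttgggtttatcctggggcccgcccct
The motif began at base -46 in Mmp3, -44 in Mmp12 and -35 in Mmp13, counted back from the start site. It was not in the Timp1 window or in that of the upstream Mmp12 start site. The other windows that were matched did not hold it either, and all windows together covered 8 of the 10 genes and 9 start sites. Of all 32817 promoters of this length, 1465 (4.46%) held it. A match of letters in a window is a description of the sequence and no measure of binding.

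Each value below counts unique molecular identifiers (UMIs), 1 for each captured RNA molecule, and CPM is UMIs per 1000000 UMIs of the cells named. Of 6899, 4246, 8555 and 11243 barcodes in TNF- synovium, TNF+ synovium, TNF- lung and TNF+ lung, 6200, 3152, 6998 and 9174 passed the filters of 200 to 5000 genes and at most 20% mitochondrial UMIs, with medians of 12492, 8728, 7137 and 8403 UMIs. The TNF+ synovium stood apart, with 17.6% of barcodes over the mitochondrial limit against 1.41% to 3.78% in the others. Pairs of libraries shared 5 to 21 barcodes. The labelled tissues held their defining markers, Prg4 at 242 and 1021 CPM in the mesenchyme of TNF- and TNF+ synovium and Sftpc at 110306 and 65635 CPM in the epithelium of TNF- and TNF+ lung. Mesenchyme-like cells were 58.4% of cells in TNF- synovium and 18.4% in TNF+ synovium, and 8.07% and 2.30% in the lungs. Myeloid cells were 10.0% and 38.6% in synovium and 15.5% and 54.6% in lung. In values over whole tissue, fewer cells of a type and less RNA per cell cannot be told apart, so values within classes of cells follow each of them. The upper gene limit removed 8.15% of barcodes in TNF+ synovium and 17.0% in TNF+ lung, barcodes that held 29.5% and 45.7% of the UMIs and can hold more than 1 cell.

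With 1 library per group there was no replicate error and no test, and genotype and library cannot be told apart. All intervals are exact 95% intervals that cover counting error only, and a gene was called at a 2-fold difference with at least 20 UMIs over both libraries.

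In whole synovium 5 of the 10 genes were higher in TNF+ by 2-fold (Mmp3, Mmp12, Mmp13, Mmp19 and Timp1), where 11.8% of 19255 genes were. The 2 lower genes were Mmp2 and Timp2, beside 21.9% of all genes. The median log2 ratio of TNF+ to TNF- over the 10 genes was 1.61, and that of all genes was -0.17. In whole lung the order turned over. There 2 genes (Mmp12 and Mmp14) were higher, beside 5.79% of 19510 genes, and 7 (Mmp2, Mmp3, Mmp13 and the 4 TIMPs) were lower, beside 25.5%, with a median of -2.22 against -0.32.

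The counts within classes of cells differed from those over whole tissue. In synovial mesenchyme 7 genes were higher (Mmp3, Mmp12, Mmp13, Mmp14, Mmp19, Timp1 and Timp4), where 9.34% of 16765 genes were, and none was lower, where 21.4% were. In synovial myeloid cells 7 were higher (Mmp3, Mmp12, Mmp13, Mmp14, Mmp19, Timp1 and Timp2), beside 9.29% of 13075 genes, and 3 were lower (Mmp2, Timp3 and Timp4), beside 20%. This class was made of different cells in the 2 libraries, with 370 of 621 TNF- cells in a dendritic cluster and 872 of 1216 TNF+ cells in a macrophage cluster. Among macrophages alone, 86 and 900 cells, the log2 ratios were 6.32 for Mmp12 (4.47 to 9.37, from 2 UMIs in TNF-), 3.99 for Mmp14 and 1.65 for Mmp19. Those macrophages were also mostly of different clusters, 76 of the 86 in a Retnla C1q cluster and 872 of the 900 in a Spp1 Trem2 cluster. In lung mesenchyme 8 genes could be compared, of which Timp1 was higher, beside 9.32% of 11947 genes, and Timp3 and Timp4 were lower, beside 9.18%. In lung myeloid cells 9 genes could be compared, of which Mmp14 was higher, beside 4.09% of 15676 genes, and Mmp13 and Timp3 were lower, beside 16.4%. Some calls in myeloid cells compare levels no higher than those of lymphocytes of the same library. In TNF- synovium lymphocytes held 27.6 CPM of Mmp2, 31.0 CPM of Timp3 and 8.12 CPM of Timp4. The myeloid cells held less, 11.1, 13.2 and 2.39 CPM, so the 3 lower calls are not read as differences between myeloid cells. Free RNA of the library as a source of these molecules was not tested. Mmp3 in TNF+ synovium was likewise 4.71 CPM in myeloid cells and 6.79 CPM in lymphocytes, and Timp3 in TNF- lung was 5.92 CPM in myeloid cells and 6.48 CPM in lymphocytes. The lung counts rested on 1 or 2 genes each, and the number in each lung class changed with the processing.

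**Figure D1:**
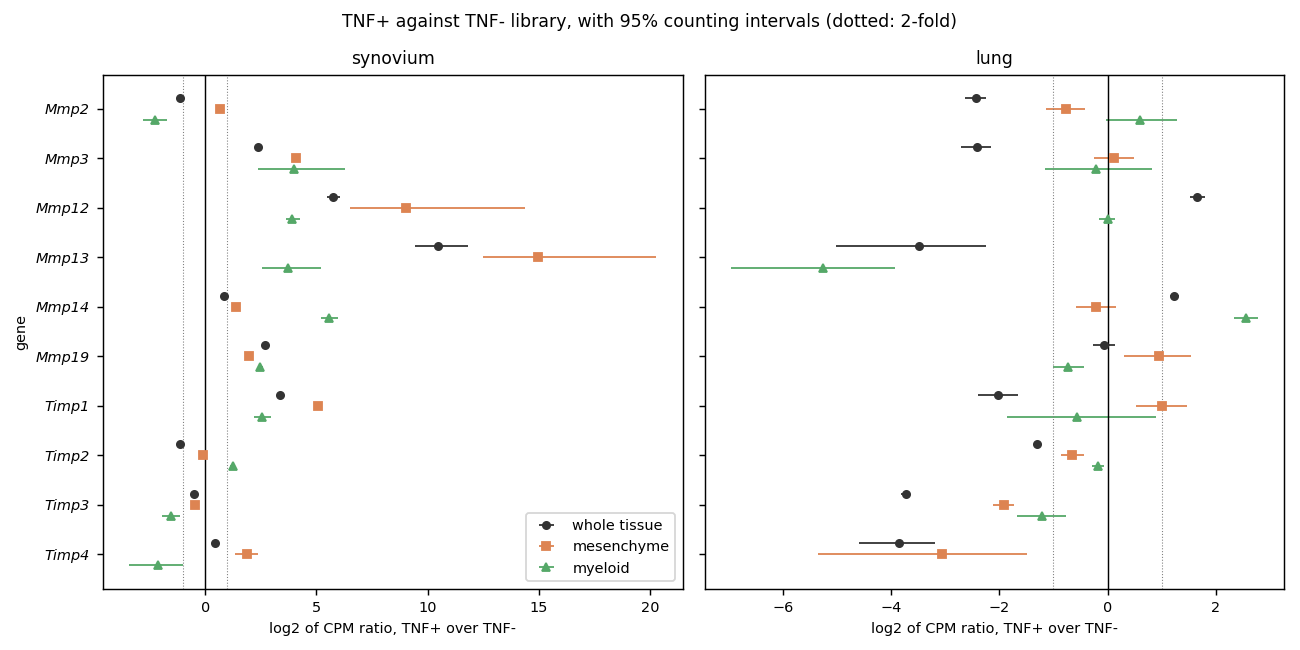
Log2 ratio of TNF+ to TNF- CPM (horizontal axis) for each of the 10 genes in whole tissue, mesenchyme and myeloid cells of synovium and lung, with 95% intervals for counting error. The Mmp3, Mmp13 and Timp1 points of synovial mesenchyme lie at 4.10, 14.97 and 5.06, while those of Mmp3 and Timp1 in lung mesenchyme lie at 0.12 and 1.0.

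Mmp13, the collagenase, was nearly absent from TNF- synovium and was a fibroblast transcript in TNF+ synovium. It had 7 UMIs in TNF- synovium (0.0919 CPM) and 4339 in TNF+ synovium (131 CPM), a log2 ratio of 10.48 (9.44 to 11.80). Mesenchyme held 95.2% of the TNF+ molecules. Its level in mesenchyme was 0.0192 CPM from 1 UMI in TNF- mice and 617 CPM (598 to 636) in TNF+ mice, so that the log2 ratio of 14.97 has an interval from 12.49 to 20.27. After each cell was thinned to 1000 UMIs, 14.6% of TNF+ mesenchymal cells had an Mmp13 UMI and 0 of 3597 TNF- cells did, which allows a share of up to 0.0834%. TNF+ myeloid cells held 7.85 CPM of Mmp13 and TNF+ lymphocytes, which should lack it, held 6.79 CPM, so the myeloid level is not read as a difference. In the largest TNF+ macrophage cluster 2 cells held 24 and 20 Mmp13 UMIs. In lung Mmp13 was scarce in both groups, with 43 UMIs in TNF- and 6 in TNF+ (0.799 and 0.0711 CPM). All but 2 of the TNF- UMIs came from 1 cluster of C1q macrophages that also expressed St18, at 51.7 CPM, where TNF+ cells of the same cluster held 1.51 CPM. Those 41 TNF- UMIs lay in 11 of 64 cells, 87.8% of them in 6 cells, and the 5 TNF+ UMIs lay in 1 of 240 cells. Lung mesenchyme had no Mmp13 UMI in either group, which allows up to 0.739 CPM in TNF- and 5.17 CPM in TNF+ lung.

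Mmp3, the stromelysin, had its highest level in fibroblasts in all 4 libraries, and TNF+ was higher in synovium and lower in lung. Its level over whole tissue was 55.3 CPM in TNF- synovium, 284 CPM in TNF+ synovium, 9.33 CPM in TNF- lung and 1.74 CPM in TNF+ lung. The log2 ratio was 2.36 (2.31 to 2.41) in synovium and -2.42 (-2.70 to -2.15) in lung, and with each cell weighted equally the lung value was -0.48. Mesenchyme held 98.8% of Mmp3 UMIs in TNF- synovium, 98.3% in TNF+ synovium, 93.6% in TNF- lung and 49.7% in TNF+ lung. Within synovial mesenchyme the level went from 80.1 CPM (77.7 to 82.5) to 1377 CPM (1349 to 1405), and 4.06% and 20.1% of thinned cells had a UMI. Within lung mesenchyme, with the gene limit, it was 116 CPM (106 to 127) and 126 CPM (98.7 to 158), which overlap. The lower whole-lung value thus accompanied the smaller share of mesenchymal cells. Barcodes over 5000 genes held 74.8% of the Mmp3 UMIs in TNF- lung and 81.9% in TNF+ lung. With every barcode kept, a Dcn C7 fibroblast cluster held 287 CPM (275 to 301) in TNF- lung and 537 CPM (493 to 585) in TNF+ lung. The TNF+ lung mesenchyme had a median of only 796 UMIs per cell against 6462, and its summed macrophage marker level was 5249.8 CPM against 2439 CPM. The part of either in the lung mesenchyme values was not tested.

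Nearly all of the Mmp3 and Mmp13 of the TNF+ synovium came from 1 cluster of fibroblast-like cells led by Saa3, Ibsp, Cxcl5, Hp and Tnn, with 234 cells from TNF+ mice and 2 from TNF- mice. These cells held 97.0% of the Mmp3 UMIs, 94.2% of the Mmp13 UMIs and 73.4% of the Timp1 UMIs of that library. The levels within the cluster were 2363 CPM for Mmp3 (2315 to 2412), 1160.1 CPM for Mmp2, 1062 CPM for Mmp13 (1029 to 1095), 689 CPM for Mmp14 and 232 CPM for Mmp19. Among the inhibitors Timp2 stood at 1027 CPM, Timp1 at 919.6 CPM and Timp3 at 157 CPM. These are counts of 3′ tags, not divided by transcript length, so an order between genes is an order of captured molecules.

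The molecules were unevenly spread over those 234 cells. An Mmp3 UMI was found in 67.9% of them, an Mmp13 UMI in 47.0%, a Timp1 UMI in 81.6% and a Timp2 UMI in 89.7%. The 23 cells with most molecules held 56.3% of Mmp3, 64.9% of Mmp13 and 51.1% of Timp1, but 29.0% of Timp2. The highest single cells had 534 UMIs of Mmp3 and 260 of Mmp13. The collagenase and the stromelysin occurred together: the 110 cells with an Mmp13 UMI had 3747 CPM of Mmp3 and the other 124 had 1074 CPM. Mmp14 was also higher in the cells with Mmp13 (909 and 484 CPM), whereas Timp1 was near equal (945 and 896 CPM). Median depths of the cells with and without Mmp13 were 18406 and 16592 UMIs, and the part of depth in these differences was not tested.

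A small part of the cluster carried genes of bone and cartilage, a split chosen after its values were seen. The 24 cells with a UMI of Ibsp, the bone sialoprotein gene, held Mmp13 at 1436 CPM beside 1017 CPM in the other 210 cells, but Mmp3 at 237 CPM beside 2619 CPM. They also held Alpl at 650.5 CPM and Bglap at 819.8 CPM, genes of mineralising cells, where the others held 6.11 and 0.291 CPM. Timp1 was 1339.7 CPM and Timp3 was 542 CPM in them, beside 869 and 111 CPM. The other 210 cells held the lubricin gene Prg4 at 1093 CPM and Saa3 at 4336 CPM, against 162 and 43.5 CPM. The Ibsp-rich cells supplied 14.5% of the cluster's Mmp13 and 1.08% of its Mmp3, and leaving them out gave log2 ratios over mesenchyme of 14.84 for Mmp13, 4.18 for Mmp3 and 4.94 for Timp1.

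Without this whole cluster the rest of the synovial mesenchyme looked different. Mmp13 was still higher, at 15.4 CPM against 0.0192 CPM (9.65, 7.09 to 14.98), and so was Timp1, at 188 CPM against 18.2 CPM (3.37). Mmp3 was then lower in TNF+ cells, at 44.2 CPM against 78.7 CPM (-0.83), and Mmp19 was lower too, at 23.9 CPM against 37.0 CPM (-0.63). Mmp2 and Timp3 turned as well, Mmp2 from 0.65 to -0.37 and Timp3 from -0.48 to 0.40 (0.34 to 0.47). Leaving out this 1 cluster thus turned the direction of 4 genes, and 3 of the 7 higher genes, Mmp13, Timp1 and Timp4, were then past 2-fold. The share of all genes past 2-fold was not computed for the cells left. Those cells also differed in make-up: mural cells were 292 of 3619 in TNF- and 126 of 347 in TNF+. In TNF- synovium mural cells held Mmp2 at 38.9 CPM and Mmp3 at 4.61 CPM, beside 557 and 83.0 CPM in fibroblasts. The part of this make-up in the turned directions was not tested. In TNF- synovium Mmp3 came mostly from a Gdf10 fibroblast cluster, with 58.2% of UMIs at 167 CPM, where the TNF+ cells of that cluster held 79.0 CPM (-1.08, -1.53 to -0.67). A tendon-like fibroblast cluster led by Fmod, Thbs4 and Tnmd differed in the other direction, with Mmp3 at 7.15 CPM in 303 TNF- cells and 67.0 CPM in 72 TNF+ cells. It also held 36 Mmp13 UMIs in TNF+ cells (44.7 CPM) and 0 in TNF- cells, a log2 ratio of at least 5.58 against a floor of 3 UMIs. Those 36 UMIs lay in 5 cells, and the 54 Mmp3 UMIs of the TNF+ cells lay in 8, with 28 of them in 1 cell.

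**Figure D2:**
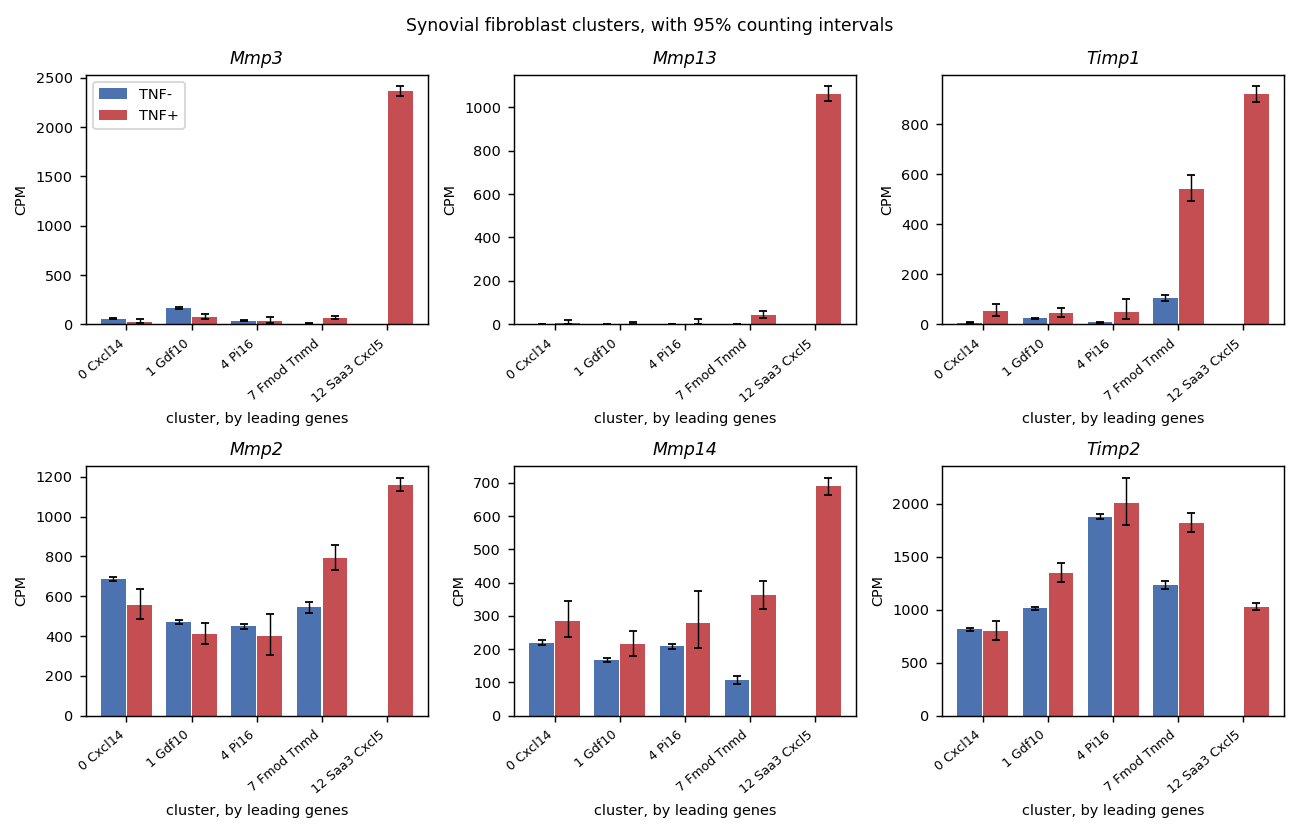
Level in CPM (vertical axis) of Mmp3, Mmp13, Timp1, Mmp2, Mmp14 and Timp2 in 5 fibroblast-like clusters of synovium (horizontal axis, by cluster number and leading genes), with bars for TNF- and TNF+ cells, 95% counting intervals, and no TNF- bar where there were under 10 cells. The Saa3 cluster of TNF+ synovium holds Mmp3 at 2363 CPM and Mmp13 at 1062 CPM, while Mmp3 in the Gdf10 cluster is 167 CPM for TNF- cells and 79.0 CPM for TNF+ cells.

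The gene limit bears on these levels. Barcodes with more than 5000 genes held 72.2% of Mmp3, 75.1% of Mmp13 and 81.9% of Timp1 UMIs of the TNF+ synovium before filtering. With every barcode kept, the matching cluster (336 TNF+ cells and 1 TNF- cell, led by Saa3, Cxcl5 and Hp) held 97.2% of Mmp3 at 3476 CPM, 95.7% of Mmp13 at 1781 CPM and 86.6% of Timp1 at 2451 CPM. The log2 ratios over synovial mesenchyme were then 5.09, 16.27 and 6.64. So the concentration in 1 kind of fibroblast held with and without the limit, and the filtered levels of these genes are the lower ones.

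Mmp2 and Mmp14, the gelatinase and its membrane-bound activator, differed in where they were found. Mmp2 stood at 379.7 CPM in TNF- synovium, 176 CPM in TNF+ synovium, 17.7 CPM in TNF- lung and 3.26 CPM in TNF+ lung. The whole-tissue log2 ratio was -1.11 (-1.15 to -1.07) in synovium and -2.44 (-2.64 to -2.25) in lung. Barcodes over 5000 genes held 57.1% of the TNF+ synovial Mmp2 UMIs, and with every barcode kept the synovial ratio was -0.38, from 368 and 282 CPM. In synovium mesenchyme held 96.5% and 97.2% of its UMIs, and its level per mesenchymal UMI was higher in TNF+, 843 CPM (821 to 866) against 537 CPM (531 to 544). The lower whole-tissue level thus went with a smaller share of mesenchymal cells and a higher level within them. Without the Saa3 cluster the ratio in mesenchyme was -0.37. In lung mesenchyme Mmp2 was 212 CPM in TNF- and 124 CPM in TNF+ cells (-0.77, -1.14 to -0.42). In TNF+ lung mesenchyme held 26.2% of its UMIs and myeloid cells 61.8%, at 3.53 CPM, where lymphocytes held 0.735 CPM.

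With the gene limit, Mmp14 was found mostly outside myeloid cells in the TNF- libraries and mostly in them in the TNF+ libraries. Its whole-tissue levels were 137 and 248 CPM in TNF- and TNF+ synovium (0.85, 0.81 to 0.90) and 26.6 and 62.6 CPM in TNF- and TNF+ lung (1.23, 1.15 to 1.32). Myeloid cells held 55.1% of the UMIs in TNF+ synovium and 90.4% in TNF+ lung, where the largest shares in the TNF- libraries were mesenchyme with 94.7% in synovium and endothelium with 40.5% in lung. In myeloid cells the level went from 5.77 CPM (4.38 to 7.46) to 273 CPM (265 to 281) in synovium and from 16.9 CPM (14.5 to 19.6) to 99.2 CPM (96.4 to 102) in lung. Lymphocytes of the same libraries held 11.3, 2.55, 0.704 and 6.77 CPM, so the TNF- synovial myeloid value is below that of lymphocytes and the TNF+ values are well above theirs. Among thinned myeloid cells the share with an Mmp14 UMI was 0.647% and 18.3% in synovium and 0.850% and 6.97% in lung.

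In both TNF+ libraries macrophage clusters held Mmp14. In TNF+ synovium a macrophage cluster led by Spp1 and Trem2, with 872 TNF+ cells and 10 TNF- cells, held it at 333 CPM with a UMI in 80.3% of cells. In TNF+ lung the St18 C1q macrophages held 368 CPM against 65.6 CPM in TNF- lung, and the F13a1 Ccr2 cells, which were named macrophages with the gene limit and monocytes without it, 248 CPM against 45.0 CPM. That TNF- value came from 84 UMIs in 10 of 125 cells, 30 and 24 of them in 2 cells. Alveolar macrophages had 169 CPM in TNF+ and no UMI in 103 TNF- cells, a log2 ratio of at least 6.42. The main monocyte cluster had 46.3 CPM in TNF+ and no UMI in 310 TNF- cells, at least 5.36. All 4 of these lung clusters were higher in TNF+, while the Ccl17 dendritic cluster, at 29.1 and 36.4 CPM, had an interval of the ratio that included 0 on the log2 scale. Mmp14 was also higher in synovial mesenchyme, 495 CPM against 190.3 CPM (1.38, 1.32 to 1.44), and without the Saa3 cluster that ratio was 0.30. In lung mesenchyme it was 121 CPM against 139 CPM, with overlapping intervals.

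**Figure D3:**
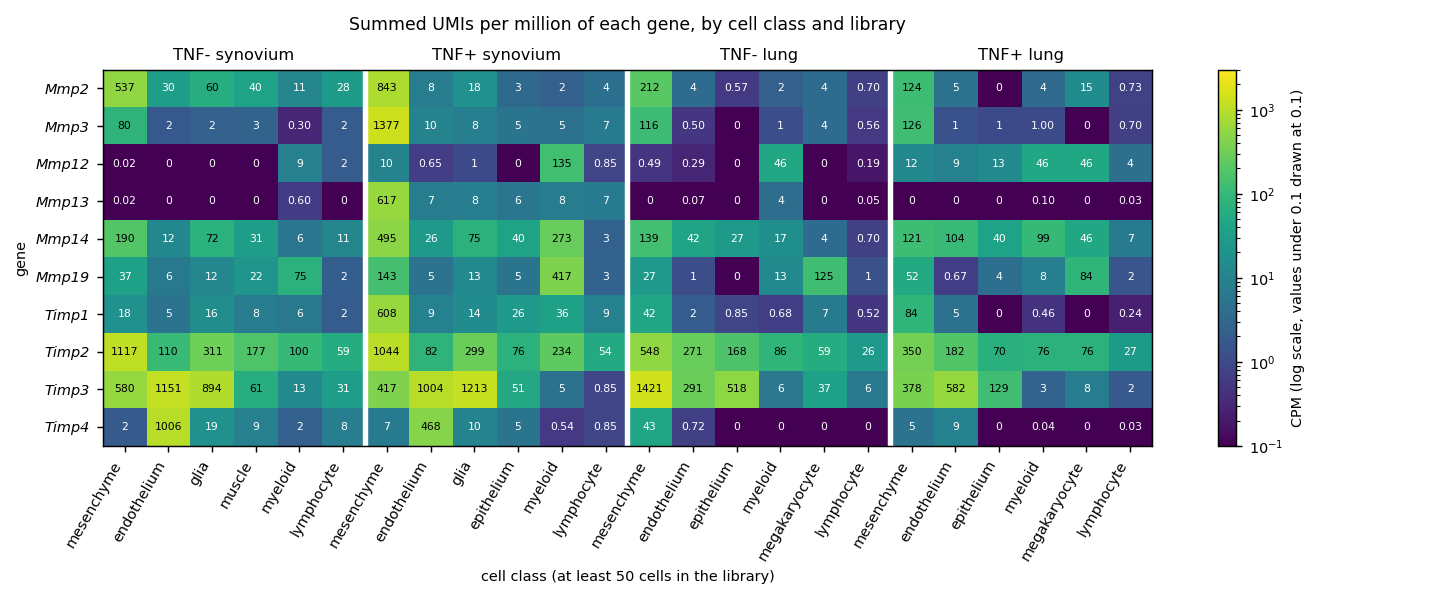
Heat map of the level of each gene (vertical axis) in CPM, printed in each box and coloured on a log scale, in the classes of cells with at least 50 cells (horizontal axis) of the 4 libraries. Mmp14 in myeloid cells lies at 5.77 and 273 CPM in TNF- and TNF+ synovium and at 16.9 and 99.2 CPM in TNF- and TNF+ lung.

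Mmp12, the macrophage elastase, was higher over whole tissue in TNF+ of both tissues. It had 1.30 CPM in TNF- synovium, 69.8 CPM in TNF+ synovium, 8.96 CPM in TNF- lung and 28.3 CPM in TNF+ lung. The log2 ratios were 5.75 (5.46 to 6.05) in synovium and 1.66 (1.52 to 1.80) in lung. Myeloid cells held 90.9%, 96.9%, 97.9% and 92.1% of its UMIs in that order. Per myeloid UMI the synovium differed strongly, 8.95 CPM (7.20 to 11) against 135 CPM (129 to 141), while the lung did not, 45.8 CPM (41.8 to 50.2) against 45.7 CPM (43.8 to 47.7), a log2 ratio of 0.00 with an interval from -0.15 to 0.14. The near-equal lung values summed opposite differences between clusters. In the St18 C1q macrophages Mmp12 was 325 CPM in TNF- and 3.63 CPM in TNF+ cells. The TNF- value came from 258 UMIs in 20 of 64 cells, 65.9% of them in 6 cells. The TNF+ value was below the 4.50 CPM of TNF+ lung lymphocytes. In the F13a1 Ccr2 cells Mmp12 was 0.535 CPM from 1 UMI in TNF- and 88.4 CPM in TNF+. Dendritic cells of a Ccl17 cluster had 110.0 and 239 CPM, though 110 of the 136 TNF- UMIs lay in 1 cell. Alveolar macrophages had 49.5 and 138 CPM. Without the St18 cluster the lung myeloid ratio was 1.12 (0.91 to 1.33).

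The Mmp12 of synovium lay in few cells. In the TNF+ Spp1 Trem2 macrophages only 140 of 872 cells (16.1%) had a UMI, at 146 CPM, and the 87 cells with most molecules held 95.4% of them. Synovial dendritic cells held 11.2 CPM in TNF- and 196 CPM in TNF+ cells, and monocytes 5.65 and 30.9 CPM. The call in synovial mesenchyme rested on 68 UMIs in 7 TNF+ cells, 56 of them in 1 cell, against 1 UMI in TNF- cells.

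The gene limit bore strongly on Mmp12 in lung. Of 20212 Mmp12 UMIs in TNF+ lung, 17819 (88.2%) were in barcodes with more than 5000 genes, against 55.7% in TNF- lung. With every barcode kept, myeloid Mmp12 in lung was 42.1 CPM in TNF- and 194 CPM in TNF+ cells (2.21), in place of 0.00. A cluster of 310 TNF+ cells and 8 TNF- cells led by H2-M2, Gpnmb, Lyz1, Trem2 and Ccl9 then held 64.9% of the Mmp12 molecules, at 1415 CPM (1391 to 1439), and dendritic cells held 23.0%, at 464 CPM. These macrophage-like cells were nearly absent from the filtered data, and whether some of their barcodes hold more than 1 cell was not tested.

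Mmp19 was a transcript of macrophages and fibroblasts, and the balance between them differed in TNF+ synovium. It stood at 37.5 and 239.9 CPM in TNF- and TNF+ synovium (2.68, 2.61 to 2.74) and at 6.04 and 5.77 CPM in TNF- and TNF+ lung (-0.07, -0.27 to 0.14). The mesenchymal share of its UMIs in synovium was 67.5% in TNF- and 12.1% in TNF+, and the myeloid share was 26.2% and 87.0%. Myeloid cells held 74.6 CPM (69.4 to 80.1) and 417 CPM (407 to 427), while mesenchyme held 37.2 and 143 CPM. The Spp1 Trem2 macrophages had 498 CPM in TNF+ cells, and their 10 TNF- counterparts had 1207 CPM from 141 UMIs. The Retnla C1q macrophages of synovium, present in both libraries with 76 and 28 cells, had 35.9 and 463 CPM. Dendritic cells (72.9 and 87.0 CPM) and monocytes (37.9 and 30.9 CPM) had intervals of the ratio that included 0 on the log2 scale. In lung, with the gene limit, the highest levels were in platelet-like cells, 125 and 83.7 CPM, and alveolar macrophages, 59.4 and 157 CPM. Over lung myeloid cells the level was 13.4 CPM in TNF- and 8.10 CPM in TNF+. Barcodes over 5000 genes held 82.4% of the Mmp19 UMIs of TNF- lung and 90.6% of those of TNF+ lung. With every barcode kept, whole lung stood at 19.5 and 33.5 CPM (0.78), and the H2-M2 Gpnmb Trem2 cells of TNF+ lung at 240.5 CPM.

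**Figure D4:**
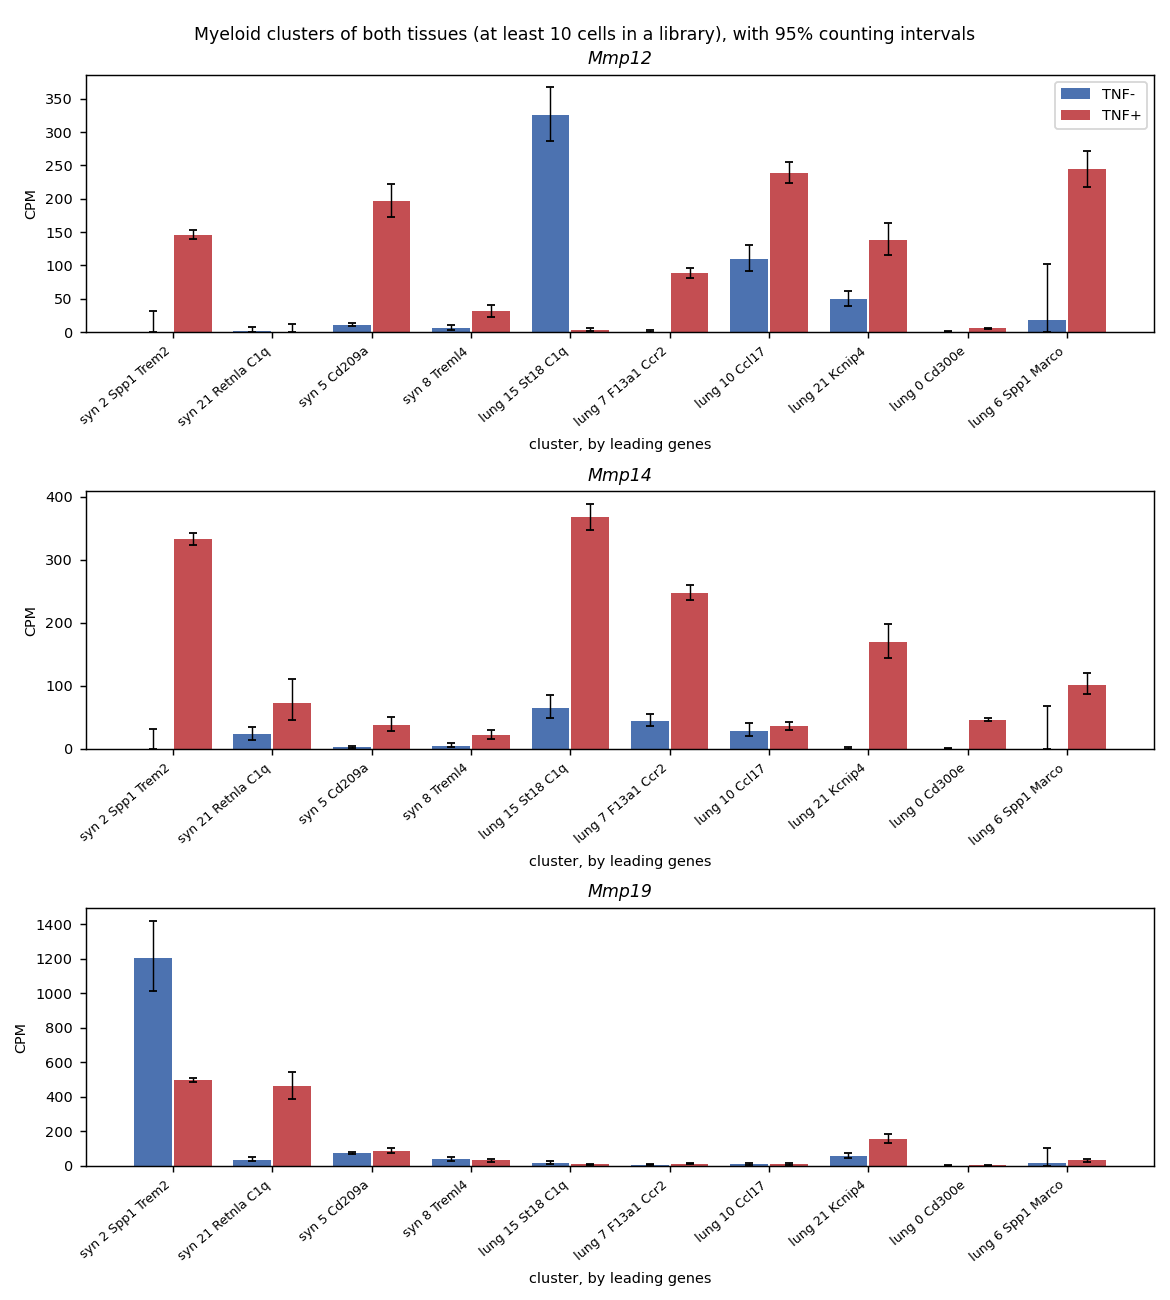
Level in CPM (vertical axis) of Mmp12, Mmp14 and Mmp19 in 4 synovial and 6 lung myeloid clusters (horizontal axis, by tissue, cluster number and leading genes), with bars for TNF- and TNF+ cells and 95% counting intervals. Mmp12 in the St18 C1q macrophages of lung is 325 CPM in TNF- and 3.63 CPM in TNF+ cells, and Mmp14 in the same cells is 65.6 and 368 CPM.

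Timp1, the inducible inhibitor, accompanied the enzymes in synovial fibroblasts. Its whole-tissue levels were 14.3 CPM in TNF- synovium, 146 CPM in TNF+ synovium, 4.14 CPM in TNF- lung and 1.02 CPM in TNF+ lung, log2 ratios of 3.35 (3.26 to 3.45) and -2.02 (-2.40 to -1.66). Mesenchyme held 87.1%, 84.5%, 76.7% and 57.0% of its UMIs. In synovial mesenchyme it was 18.3 CPM (17.1 to 19.5) and 608 CPM (589.8 to 627), and 1.83% and 20.5% of thinned cells had a UMI. Unlike Mmp3 it was higher in the TNF+ cells of 4 fibroblast clusters of synovium that had 57, 74, 18 and 72 such cells: 7.35 and 54.1 CPM in the Cxcl14 cluster, 23.9 and 44.4 CPM in the Gdf10 cluster, 9.07 and 50.8 CPM in the Pi16 cluster, and 104 and 542 CPM in the tendon-like cluster. In the tendon-like cluster 30 of 303 TNF- cells held 81.2% of the Timp1 UMIs and 7 of 72 TNF+ cells held 82.6%. There 26.7% of TNF- and 38.9% of TNF+ cells had a UMI. A synovial mural cluster held 2.32 CPM from 3 UMIs and 133 CPM from 26 UMIs. In lung mesenchyme Timp1 was 42.1 and 84.5 CPM (1.0, 0.52 to 1.47), from 171 and 49 UMIs, so the lower whole-lung level again went with fewer mesenchymal cells. That lung value turned over with every barcode kept, to 148 and 97.7 CPM.

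Timp2, the constitutive inhibitor that also serves in activation of proMmp2, had the highest whole-tissue level of the 10 genes in both filtered synovium libraries. With every barcode kept it stood at 482 CPM in TNF+ synovium, behind Mmp3 at 709 CPM and Timp1 at 561 CPM, and its ratio in synovium was -0.74. It was 805 CPM in TNF- and 365 CPM in TNF+ synovium (-1.14, -1.17 to -1.11) and 150.1 and 60.7 CPM in TNF- and TNF+ lung (-1.31). Within synovial mesenchyme it differed little, 1117 CPM (1108 to 1127) and 1044 CPM (1019.6 to 1069), a log2 ratio of -0.10 (-0.13 to -0.06). The myeloid cells of synovium had 99.8 CPM in TNF- and 234 CPM in TNF+ (1.23, 1.13 to 1.33), beside 59.3 and 54.3 CPM in lymphocytes, and carried 32.1% of Timp2 UMIs in TNF+ synovium. Among macrophages alone the direction was the opposite, 438 CPM in 86 TNF- cells and 278 CPM in 900 TNF+ cells (-0.66, -0.79 to -0.52), where dendritic cells were most of the TNF- myeloid class. Fibroblasts of the Pi16 cluster had 1875 and 2011 CPM, the highest Timp2 among the clusters named here. In lung the endothelium held 46.8% of the TNF- UMIs, at 271 CPM, and myeloid cells 71.3% of the TNF+ UMIs, at 75.8 CPM against 85.7 CPM in TNF- myeloid cells.

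Timp3, the matrix-bound inhibitor, was lower in both TNF+ tissues, with a larger difference in lung. It was 463 and 322 CPM in TNF- and TNF+ synovium (-0.52, -0.56 to -0.49) and 221 and 16.7 CPM in TNF- and TNF+ lung (-3.73, -3.81 to -3.65). In TNF- lung mesenchyme held 48.5% of the UMIs, and its level was 1421 CPM (1385 to 1458) in TNF- and 378 CPM (329 to 431) in TNF+ cells (-1.91). The C7 Nox4 Dcn fibroblast cluster had 1741 and 574 CPM and the Inmt fibroblast cluster 960.0 and 228 CPM, while another, led by Hhip and Aspn, had 95 TNF- cells at 1172 CPM and only 4 TNF+ cells. Lung epithelium had 518 and 129 CPM (-2.01). The endothelium went the other way, 291 CPM (283 to 301) and 582 CPM (544 to 622). In 1 cluster led by Rgs6 and Ednrb, with 254 TNF- and 22 TNF+ cells, the values were 660.1 and 1954 CPM. Lung endothelium was made of different clusters in the 2 libraries. A Bmp6 cluster had 1412 of the 2289 TNF- cells and 5 TNF+ cells. A Hspg2 Prnd cluster had 18 TNF- cells and 261 of the 396 TNF+ cells. The part of this make-up in the endothelial values was not tested. Median depths of lung endothelium were 5574 UMIs in TNF- and 778 in TNF+ cells, and among endothelial cells with at least 1000 UMIs the log2 ratio was 1.09 (0.98 to 1.20). In synovium mesenchyme held 85.3% of the TNF- UMIs and 26.2% of the TNF+ UMIs, where clusters left unnamed held 31.8% and endothelium 29.1%. Synovial endothelium differed less, with 1151 and 1004 CPM (-0.20), as did a synovial mural cluster, with 1698 and 1529 CPM (-0.15).

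Timp4 marked endothelium in synovium and smooth muscle in lung. Synovial endothelium held 92.6% of the TNF- UMIs and 75.0% of the TNF+ UMIs, at 1006 CPM (970.0 to 1042) and 468 CPM (444 to 493), a log2 ratio of -1.10. The capillary cluster showed the same, 1099 and 522 CPM. Over whole synovium the level was 42.5 and 58.4 CPM (0.46, 0.38 to 0.54), with endothelium at 10.3% of TNF- and 12.4% of TNF+ cells. Synovial cells left unnamed held 35 and 409 Timp4 UMIs, at 19.5 and 151 CPM (2.95, 2.45 to 3.49). Among them a cluster of 76 TNF- and 137 TNF+ cells, and 1 of 1 and 64 cells, had most markers of endothelial cells. The part of these cells in the whole-tissue value was not tested. The call in synovial mesenchyme compared 1.85 and 6.72 CPM, where lymphocytes held 8.12 and 0.849 CPM. In lung Timp4 was 3.44 CPM in TNF- and 0.237 CPM in TNF+ (-3.86, -4.60 to -3.19), from 185 and 20 UMIs. One smooth muscle cluster with 85 cells held 85.4% of the TNF- UMIs, at 192 CPM, and had 9 cells in TNF+ lung. Of the 20 UMIs in TNF+ lung, 14 were endothelial.

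**Figure D5:**
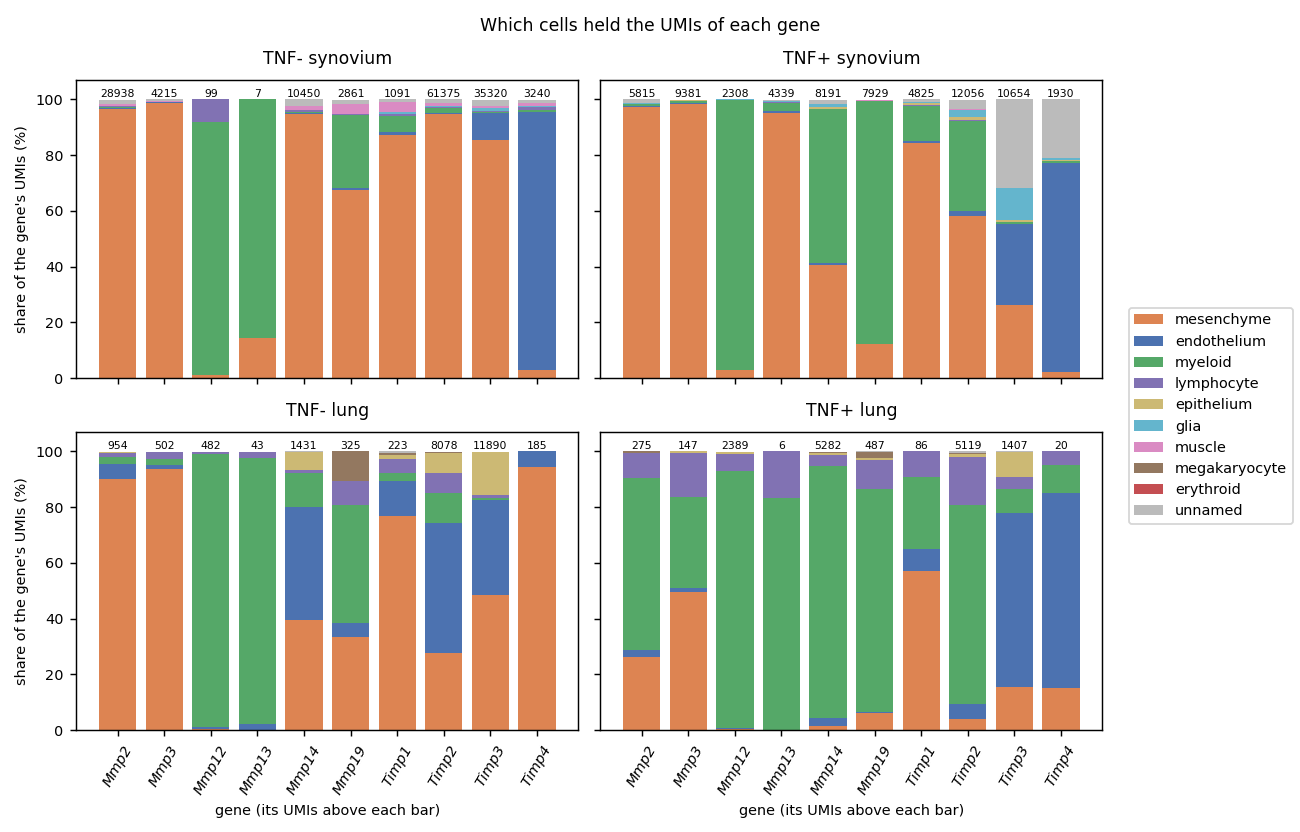
Share of the UMIs of each gene (percent) that lies in each class of cells, for the 4 libraries. The shares are those with the gene limit. For Mmp14 the myeloid share is 55.1% in TNF+ synovium and 90.4% in TNF+ lung, and for Mmp19 in synovium it is 26.2% in TNF- and 87.0% in TNF+.

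Counted over the libraries, mesenchyme was the class with the most UMIs for 7 of the 10 genes in TNF- synovium, 5 in TNF+ synovium, 5 in TNF- lung and 2 in TNF+ lung. The sum of the 4 TIMPs was set against the sum of the 6 enzymes as captured molecules, with no account of protein or activity. In whole synovium there were 2.17 TIMP UMIs per enzyme UMI in TNF- mice (2.15 to 2.19) and 0.776 in TNF+ mice (0.764 to 0.788). In whole lung there were 5.45 and 0.772. In synovium the ratio was lower in TNF+ in mesenchyme, 2.03 and 0.596, myeloid cells, 1.20 and 0.328, and endothelium, 44.6 and 27.6. In lung it was lower in TNF+ in mesenchyme, 4.16 and 1.88, myeloid cells, 1.10 and 0.50, and endothelium, 12 and 6.51. It was also lower in lung epithelium, 25.3 and 3.40, and in lung lymphocytes, 9.48 and 2.04. In TNF- and TNF+ lung lymphocytes Mmp12 was 0.188 and 4.50 CPM and Mmp14 was 0.704 and 6.77 CPM. The macrophage marker C1qa was 1.55 and 49.1 CPM in them, and 0.849 and 59.4 CPM in lung epithelium. In lung mesenchyme C1qa was 1.48 and 150.0 CPM, and in lung endothelium 1.65 and 108 CPM. The part of free RNA or of mixed cells in these ratios was not tested. The ratio was higher in TNF+ in the unnamed synovial cells, 2.06 and 15.6. The intervals overlapped in synovial glia, 8.48 and 12.5, synovial lymphocytes, 2.23 and 2.75, and lung megakaryocytes, 0.757 and 0.440. Fibroblast clusters present in both libraries did not share 1 direction. The ratio was higher in TNF+ in the Cxcl14 cluster, 1.26 and 1.93, and the Gdf10 cluster, 1.78 and 2.62, lower in the tendon-like cluster, 3.12 and 2.34, and had overlapping intervals in the Pi16 cluster, 3.70 and 3.50. The Saa3 cluster of TNF+ synovium stood at 0.381, below all of them. Myeloid clusters did not share 1 direction either. In lung the ratio was higher in TNF+ in the St18 C1q macrophages, 0.842 and 1.29. It was lower in the F13a1 Ccr2 cells, 1.71 and 0.252, and in the main monocyte cluster, 4.25 and 0.393. The synovial monocyte cluster, 0.475 and 0.503, had overlapping intervals.

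Other genes of the pathway were read from lists of the remaining metalloproteinases, other inhibitors and the proteases that activate proenzymes. Of 12 other metalloproteinases with enough UMIs in whole synovium, 3 were higher by 2-fold in TNF+, beside 11.8% of all genes, and 4 were lower, beside 21.9%. The higher ones were Mmp9, a gelatinase (2.72), Mmp8, the neutrophil collagenase (1.41), and Mmp10, a second stromelysin (6.36, from 2 and 71 UMIs). Myeloid cells, 10.0% of TNF- and 38.6% of TNF+ synovial cells, held 90.2% and 84.2% of the Mmp9 UMIs. They held all Mmp8 UMIs, 114 of 10052283 myeloid UMIs in TNF- and 131 of 16558285 in TNF+ synovium. The part of the myeloid share in the Mmp9 and Mmp8 values was not tested. The lower ones were Mmp11 (-2.02), Mmp16 (-2.08), Mmp24 (-1.07) and Mmp27 (-1.53). In synovial mesenchyme 5 of 11 were higher, beside 9.34%, among them Mmp10 with 1 and 67 UMIs and Mmp9 (5.70), and 2 were lower, beside 21.4%. In whole lung none of 12 was higher, beside 5.79%, and 7 were lower, beside 25.5%, including Mmp28 (-4.48), Mmp16 (-4.19) and Mmp15 (-3.09). In lung myeloid cells all 7 that could be compared were lower, beside 16.4% of all genes, Mmp8 by a log2 ratio of -1.97 and Mmp9 by -1.69, and the summed neutrophil markers of those cells were 18810.2 CPM in TNF- and 5297 CPM in TNF+. The part of the neutrophil share was not tested.

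The membrane-anchored inhibitor Reck was lower in whole synovium (-2.32), in synovial mesenchyme (-1.01) and in whole lung (-1.44). All 3 other inhibitors that could be compared in whole synovium, Reck, Pzp (-2.19) and Tfpi2 (-2.01), were lower, beside 21.9% of all genes. Of 9 activating proteases and their partners in whole synovium, 1 was higher, the urokinase receptor Plaur (2.63), close to the background share of 11.8%, and 4 were lower, beside 21.9%, the proprotein convertases Pcsk6 (-3.71) and Pcsk5 (-1.86) and the plasminogen activators Plat (-1.35) and Plau (-1.26). In synovial mesenchyme Plaur was higher (2.71) and Pcsk6 was lower (-2.69). In whole lung 6 of 9 were lower, beside 25.5%, and none was higher, beside 5.79%.

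Genes of the synovial lining and sublining were set beside the enzymes within mesenchyme. The background shares there were 9.34% higher and 21.4% lower. Of 7 lining genes 4 were higher in TNF+ mesenchyme, Prg4 (2.08), Hbegf (2.53), Col22a1 (2.55) and Tspan15 (1.20), and Cd55 was lower (-1.96). Of 6 sublining genes Cxcl12 was higher (1.39) and 5 were lower, Thy1 (-1.57), Cd34 (-2.36), Pi16 (-2.09), Dpp4 (-2.23) and Col15a1 (-2.59). The summed level of 23 macrophage markers in synovial mesenchyme was 1179 CPM in TNF- and 979.9 CPM in TNF+ cells, beside 10141 and 31773 CPM in myeloid cells.

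Across 47 groups of 1 library and 1 cell type, the genes with the pattern most like each enzyme or inhibitor were named by Pearson r of log2(CPM + 1) among 9816 genes. The points share 4 libraries and differ in depth, so the values are a description. The closest genes were Mfap5 for Mmp2 (0.90), Ecrg4 for Mmp3 (0.87), H2-M2 for Mmp12 (0.82), Ibsp for Mmp13 (0.86), Cbr3 for Mmp14 (0.73) and Fth1 for Mmp19 (0.76). Among the inhibitors they were Col1a1 for Timp1 (0.83), Tspan4 for Timp2 (0.81), Fermt2 for Timp3 (0.97) and Tcf15 for Timp4 (0.87).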

How the data were processed

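Cells were dissociated with enzymes, captured on the 10x 3′ platform and sequenced. The authors deposited raw UMI counts per gene and barcode for each library. The submitters' processing notes name Cell Ranger 7.0.1 and mm10. That version counts intronic reads by default, and counts are 3′ tags that do not depend on transcript length. No deposited column was left without a sample (0 such columns).

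From the counts, barcodes with 200 to 5000 genes and at most 20% mitochondrial UMIs were kept, as in the methods of the study. No doublet caller was used in the values reported, and Harmony integration was not run. Both libraries of a tissue entered 1 clustering (scanpy 1.11.5, leidenalg 0.10.2, igraph 0.11.9; 2000 variable genes, 30 principal components, 20 neighbours, Leiden resolution 0.8), which gave 28 clusters in synovium and 37 in lung, of which 11 and 13 took over 90% of their cells from 1 library. Clusters were named by at least 5 of their markers among lists of 430 genes for 20 cell types, and the rest (5.71%, 12.1%, 0.257% and 0.643% of cells in TNF- synovium, TNF+ synovium, TNF- lung and TNF+ lung) stayed unnamed. A name stands for cells like that type, and names rebuilt here can differ from those of the study.

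CPM had exact Poisson intervals, shares exact (Clopper-Pearson) binomial ones and log2 ratios conditional binomial ones, all at 95% (Python 3.11.15, numpy 2.4.6, scipy 1.17.1, pandas 2.3.3, matplotlib 3.10.9). Classes needed 50 cells in each library and clusters 10, and a count of 0 was taken to allow 3 UMIs. Shares of cells with a UMI were compared after thinning to 1000 UMIs. The steps were checked on simulated data. All 10 genes were named. From each pathway list the genes past 2-fold were named where they were 6 or fewer, otherwise up to the 6 with the largest change, and fewer are printed where a class repeats them. One result of these lists is not reported here. The genes and lists were chosen with earlier results of these data known. Promoters came from RefSeq, and 32158 of the 32285 gene IDs matched GENCODE vM21. Alternatives covered filters, gene minimum, scaling, equal weight per cell, doublet calling with Scrublet and clustering of each library by itself.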

Additional observations from a re-analysis of the deposited data

Results flagged for a closer look

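Some genes had log2 ratios of opposite sign in the 2 tissues, and with 1 library per group the difference between tissues was not tested. Over whole tissue, the ratio of Mmp13 was 10.48 in synovium and -3.49 in lung, 13.97 apart, and the lung value compares 43 with 6 UMIs. Timp1 was 5.37 apart over whole tissue (3.35 and -2.02), and within mesenchyme its ratios were 5.06 and 1.0, of which the lung value turned to -0.60 with no filter on cells. The lung ratios over whole tissue of Mmp3 and Timp1 were -0.48 and -0.91 with each cell weighted equally. Mmp3 was 4.78 apart over whole tissue (2.36 and -2.42). In lung mesenchyme its ratio was 0.12, and from -0.41 to 1.03 under the other settings. In myeloid cells Mmp13 was 8.98 apart (3.72 and -5.26), where the TNF+ synovial level of 7.85 CPM was close to that of lymphocytes. In mesenchyme Timp4 was 4.92 apart (1.86 and -3.06), from 96 and 45 UMIs in synovium and 175 and 3 in lung.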

How the results depend on the processing

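No paired analysis was possible because each group was 1 library. Under the other settings of filter, scaling, weighting and clustering, 340 of 466 log2 ratios of single genes moved by less than their counting interval, 125 moved by more, and of the ratios past 2-fold 1 turned sign. Of 152 values for ratios under 2-fold, 16 had the other sign, over 9 ratios, among them Timp4 in whole synovium (0.46 to -0.56) and Mmp19 in lung mesenchyme (0.95 to -1.48), both with equal weight per cell. Of 39 calls at 2-fold 28 held under all of them. Scaling by the median ratio of all genes shifts every ratio up by the size of the median of all genes, -0.17 in whole synovium, -0.27 in synovial mesenchyme, -0.14 in synovial myeloid cells, -0.32 in whole lung, -0.02 in lung mesenchyme and -0.11 in lung myeloid cells. With that scaling, as with no cell filter, 0 genes were lower in whole synovium, in place of 2. The number higher in lung mesenchyme, 1, became 2 with no filter, a stricter filter, a gene minimum of 5 or only cells of 1000 UMIs (added after the data were seen), and 0 with equal weight per cell, with Scrublet or with each library clustered by itself. With equal weight per cell, 5 were lower in lung mesenchyme, 1 in synovial myeloid cells and 1 in lung myeloid cells. The number higher in lung myeloid cells, 1, became 4 with no filter and 2 with the stricter filter, with Scrublet, with each library clustered by itself or without the St18 macrophages. The number lower there, 2, became 1 with a gene minimum of 100 or without the St18 macrophages. With no filter 1 gene, in place of 2, had most of its UMIs in mesenchyme in TNF+ lung, and Timp1 in lung mesenchyme turned to -0.60. Without the Saa3 fibroblasts, an alternative added after the data were seen, 3 genes were higher in synovial mesenchyme in place of 7, Mmp3 turned to -0.83, Mmp19 to -0.63, Mmp2 to -0.37 and Timp3 to 0.40. Where a cause is not the construction of the alternative, the cause was not tested. Depth limits Mmp13 in lung, Timp4 in TNF+ lung and most values of TNF+ lung mesenchyme.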

Other observations

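With every barcode kept, the H2-M2 Gpnmb Trem2 macrophage-like cells of TNF+ lung carried other members of the family beside Mmp12. They held 42.7% of the Mmp19 UMIs of that library, at 240.5 CPM, and 42.4% of its Mmp2 UMIs, at 62.0 CPM, although fibroblasts had the highest Mmp2 level of any cell type in all 4 filtered libraries. Barcodes over 5000 genes held 90.6% of Mmp19 and 69.7% of Mmp14 UMIs in TNF+ lung. Over lung myeloid cells the log2 ratios without the limit were 3.65 for Mmp14, 3.16 for Mmp2 and 1.02 for Timp2.

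In TNF- lung barcodes over the limit held 86.2% of Timp1 and 82.4% of Mmp19 UMIs. In the 2 synovial clusters left unnamed with the most Timp3, 1 with 76 TNF- and 137 TNF+ cells and 1 with 1 TNF- and 64 TNF+ cells led by Rgs5 and Kcnj8, lay 13.7% and 16.1% of the Timp3 UMIs of TNF+ synovium. A lymphatic endothelial cluster of lung had 284 CPM of Mmp14 and 2061 CPM of Timp3.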
